A study of Mus musculus with 13 samples.

Results

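MHC class II genes encode the machinery that shows peptides of extracellular origin to CD4+ T cells, and 7 of them were examined in melanoma cells grown in the lungs of mice with different human APOE alleles. The members were chosen by symbol: the classical chains H2-Aa, H2-Ab1 and H2-Eb1, the invariant chain Cd74, the peptide-exchange chains H2-DMa and H2-DMb1, and the transactivator Ciita. All 7 were found among the 22656 genes of the deposited table, and 6 of them (all but Ciita) had a mean high enough to be among the 12403 genes tested. H2-Eb1 and Cd74 had been picked for their difference between the host genotypes in these same libraries, so their genotype comparison is a description and no p-value is given for it.

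The libraries came from 13 mice that carried either human APOE2 (8 mice) or human APOE3 (5 mice) as a knock-in. All mice had received, through the tail vein, the same mouse melanoma line, B16F10-TR-shApoe, whose own Apoe is the target of a hairpin. The host allele was therefore the difference under comparison, and the tumour line and its hairpin were shared by both groups. On day 15 the lungs were digested, and living cells with GFP and without CD45 were sorted. CD45, the product of Ptprc, is a surface protein of leukocytes, so the sort was set against the cells that are the usual carriers of class II molecules. The age and sex of the mice are not given in the sources used here. Libraries were made with a kit that reads transcripts next to the poly(A) tail, and the whole reads recovered from the deposited values ranged from 7080308 to 13039989 per library.

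In a class II molecule an alpha chain and a beta chain are assembled in the endoplasmic reticulum around the invariant chain, which fills the peptide groove and guides the complex to endosomes. There the invariant chain is cut down by proteases such as cathepsin S, and the H2-DM dimer exchanges its last fragment for a peptide. Transcription depends on CIITA, a coactivator that binds no DNA itself and is held at the promoters by factors on the X and Y boxes. Interferon gamma induces Ciita in many cell types that otherwise lack it, while dendritic cells and B cells use it without such a signal. Alveolar type 2 cells of the lung epithelium are also known to carry class II molecules. B16F10 is of C57BL/6 origin, a strain whose H2-Ea gene is defective, so that H2-Eb1 has no alpha partner there.

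In the genome (GRCm38, which is mm10) most members are neighbours. H2-DMa (ENSMUSG00000037649, chr17:34119541-34139101, plus strand), H2-DMb1 (ENSMUSG00000079547, chr17:34153072-34160230, plus strand), H2-Ab1 (ENSMUSG00000073421, chr17:34257689-34269419, plus strand), H2-Aa (ENSMUSG00000036594, chr17:34282744-34287823, minus strand) and H2-Eb1 (ENSMUSG00000060586, chr17:34305867-34316674, plus strand) share the H2 complex of chromosome 17. Ciita (ENSMUSG00000022504) is on chromosome 16 at 10480059 to 10528418, plus strand. Exons of H2-DMa overlap Brd2 and those of Ciita overlap Dexi on the opposite strand, so reads of these genes are uncertain to that extent, since the strand setting of the counting is not given in the sources used here.

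Promoter sequences show where letters of the X and Y boxes stand. RefSeq promoter windows (GRCm38.p6) were matched for 4 of the 7 members, H2-Aa, H2-Eb1, H2-DMa and H2-DMb1, and not for H2-Ab1, Cd74 and Ciita. The 250 bases before each start were searched on both strands for the X box core GNAAC followed, 15 to 40 bases later, by the Y box core ATTGG. The stretches of H2-Aa (chr17:34287863-34287910, minus strand) and H2-Eb1 (chr17:34305770-34305816, plus strand) are shown because they are classical chains in which both cores were found. Capitals mark the 2 cores.
H2-Aa: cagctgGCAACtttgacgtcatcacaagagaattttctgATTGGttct
H2-Eb1: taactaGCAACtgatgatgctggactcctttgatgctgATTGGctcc
The cores stood 28 bases apart in H2-Aa and 27 in H2-Eb1, and the Y core ended 43 and 54 bases before the start. H2-DMb1 held both cores 28 bases apart in its RefSeq window, but there they lie within an annotated GENCODE exon, so its sequence is not shown. Neither of the 2 windows of H2-DMa held the pair. Over all 32851 promoter windows, 3.56% held such a pair and 33.8% held the Y core on either strand. The cores were chosen with these sequences in view, and a match describes letters only.

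H2-Eb1, a classical beta chain, was higher in APOE3 hosts in every library. It had 86.4, 113, 143, 293 and 138 normalised counts in APOE3 replicates 1 to 5. In the 8 APOE2 libraries the lowest value was 6.34, the median 31.5 and the highest 50.4. The groups did not overlap. The mean was 31.6 ± 15.1 (SD, n = 8) in APOE2, and in APOE3 it was 154 ± 80.5 (SD, n = 5). The log2 fold change, APOE2 minus APOE3 on the log2(value + 1) scale, was −2.33 ± 0.43 (SE), which is 5.02-fold lower in APOE2. In bulk samples such as these, fewer cells of a type and less RNA per cell cannot be told apart.

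Cd74 (ENSMUSG00000024610), the invariant chain, lies apart from the others on chromosome 18 at 60803848 to 60812652, plus strand, where an exon overlaps Mir5107. It had 69.5, 102, 140, 138 and 131 normalised counts in APOE3 replicates 1 to 5, against a lowest value of 6.06, a median of 38.7 and a highest of 48.7 in APOE2. The groups again did not overlap. The means were 32.2 ± 16.2 (SD, n = 8) and 116 ± 30.3 (SD, n = 5), and the log2 fold change was −2.02 ± 0.44 (SE). Over all 12403 genes tested, 0.508% had all APOE2 libraries below all APOE3 libraries and 0.476% had them all above, and since H2-Eb1 and Cd74 were picked on this contrast nothing is read from their being among them.

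H2-Aa, the classical alpha chain, had a mean of 73.5 ± 31.8 (SD, n = 8) in APOE2 against 217 ± 142 (SD, n = 5) in APOE3, and its groups overlapped. Its normalised counts in APOE3 replicates 1 to 5 were 83.2, 125, 184, 445 and 248, and in APOE2 they ran from 38.0 through a median of 65.6 to 139. Of the 8 APOE2 libraries 6 lay below the lowest APOE3 library, and 3 of the 5 APOE3 libraries lay above the highest APOE2 library, which was replicate 1. The log2 fold change was −1.42 ± 0.35 (SE). With limma and Benjamini-Hochberg adjustment over all genes the p-value was 0.000434 before and 0.0520 after adjustment, just beyond the threshold of 0.05, and all 8 APOE2 libraries were below the APOE3 mean of log2 values. The gene passed by edgeR on the recovered reads (adjusted p = 0.0211), by DESeq2 (0.00251), with equal library totals (0.0471), with a pseudocount of 5 (0.0371) and with a minimum mean of 50 (0.0448), and also without APOE2 replicate 1 (limma adjusted p = 0.0481), APOE3 replicate 1 (0.0147) or APOE3 replicate 2 (0.0452). It did not pass with any other library left out (limma adjusted p from 0.0587 to 0.166), nor with a pseudocount of 0.5 (0.0585), TMM scaling (0.0527), a replicate block (0.133), no filter on low values (0.156), no trend (0.186), or the leukocyte (0.189) or alveolar type 2 (0.987) marker covariate.

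H2-Ab1, the classical beta chain that pairs with H2-Aa, had the widest spread of the classical members relative to its mean, with a coefficient of variation of 61.9% in APOE2 and 97.6% in APOE3. It had 20.0, 82.5, 66.6, 265 and 57.8 normalised counts in APOE3 replicates 1 to 5. In APOE2 the values ran from 0 in replicate 3 through a median of 18.7 to 42.9. APOE3 replicate 1 lay inside the APOE2 range, and the other 4 APOE3 libraries lay above it. The log2 fold change of −2.07 ± 0.72 (SE) did not pass by limma (adjusted p = 0.189), and it was −1.49 without APOE2 replicate 3 and −1.60 without APOE3 replicate 4. DESeq2 put it past the threshold (adjusted p = 0.0261) and edgeR did not (0.0913).

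**Figure D1:**
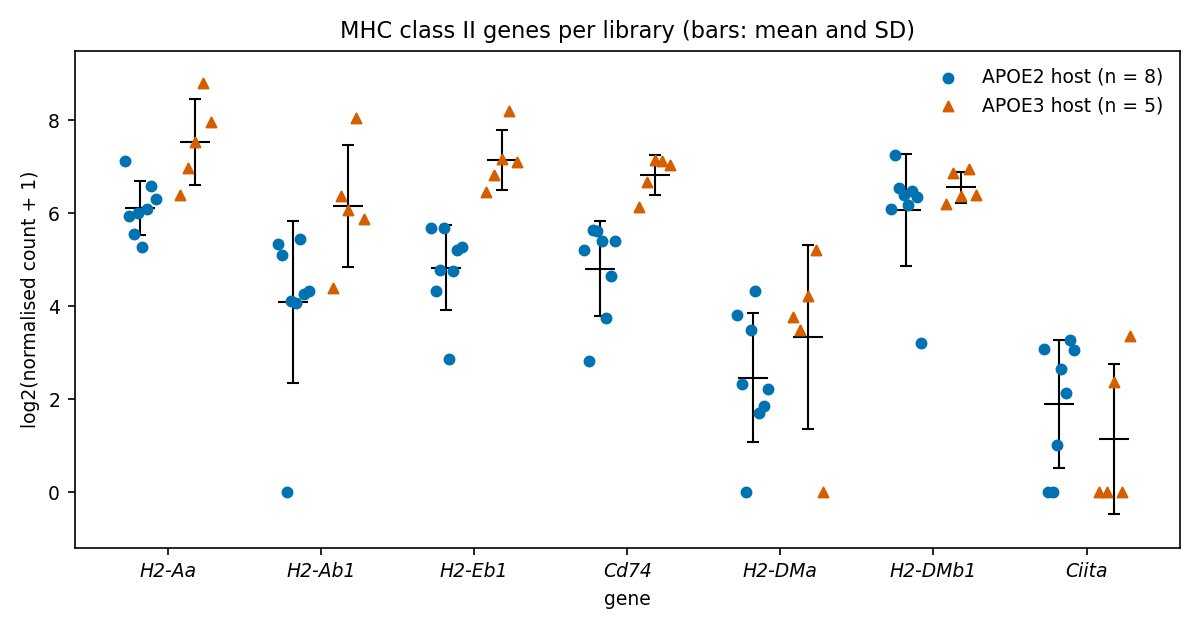
Normalised counts of the 7 class II genes as log2(normalised count + 1), 1 point per library, circles for the 8 APOE2 hosts and triangles for the 5 APOE3 hosts, with bars for mean and SD of the log2 values. H2-Eb1 and Cd74 have no overlap between the groups, H2-Aa and H2-Ab1 overlap in part, and H2-DMa, H2-DMb1 and Ciita overlap through most of their range.

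The H2-DM chains, which load peptide onto classical class II molecules, did not pass the test. H2-DMb1, the beta chain, had 72.7, 115, 82.2, 123 and 83.3 normalised counts in APOE3 replicates 1 to 5. In APOE2 its lowest value was 8.24, in replicate 8, its median 82.0 and its highest 152. The groups overlapped through most of the range, with a log2 fold change of −0.50 ± 0.45 (SE, limma adjusted p = 0.656). Without APOE2 replicate 8, which had 9 reads of this gene, the log2 fold change was −0.087. Of the 50-base stretches in the last 500 bases of its longest transcript, 20.4% also occur in the neighbouring copy H2-DMb2, so reads of the pair can be mixed. H2-DMb2 had 27 reads in the APOE2 libraries together and 54 in the APOE3 libraries.

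H2-DMa, the partner chain, was close to the detection limit. It had 12.6, 10.2, 17.7, 35.8 and 0 normalised counts in APOE3 replicates 1 to 5, and from 0 through a median of 3.85 to 19.0 in APOE2. The groups overlapped, and the log2 fold change of −0.87 ± 0.98 (SE) did not pass (limma adjusted p = 0.732). Without APOE3 replicate 5 it was −1.70 and without APOE2 replicate 3 it was −0.52. With a mean of 10.1 over the 13 libraries the gene was just inside the minimum mean of 10 that was required for testing. It met that minimum only through APOE3, where its mean was 15.3, against 6.84 in APOE2.

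Ciita, the transactivator, was below that minimum, with a mean of 3.58 normalised counts over the 13 libraries. It had 38 reads in all 8 APOE2 libraries together and 12 in the 5 APOE3 libraries. Values were 0, 0, 4.16, 0 and 9.26 normalised counts in APOE3 replicates 1 to 5 and ran from 0 through a median of 4.33 to 8.63 in APOE2. Reads of Ciita were present in 6 of 8 APOE2 libraries and in 2 of 5 APOE3 libraries. In the 5 libraries without a read, a count of 0 allows up to 0.323 to 0.390 RPM (3 reads, counting error only; RPM is reads scaled to equal library totals). In the fit with no filter on low values its log2 fold change was 0.76 ± 0.82 (SE, limma adjusted p = 0.769), opposite in sign to the 6 tested members. H2-DMa was among those 6 only through its mean in APOE3, so nothing is read from its sign.

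Of the 4 tested members that were not picked for their pattern, 0 passed by limma, with H2-Aa and H2-Ab1 at an unadjusted p under 0.05. Over all 12403 genes tested limma called 0.379% lower and 0.411% higher in APOE2, and 1763 had an unadjusted p under 0.05. By edgeR 1 of the 4 passed (H2-Aa) and by DESeq2 2 (H2-Aa and H2-Ab1), where 0.621% and 1.31% of genes were called lower by the respective tool. The log2 fold changes of these 4 were below 0. H2-DMa was tested only because of its mean in APOE3, so nothing is read from its sign.

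Spread among libraries of a single genotype was larger than counting error in each tested member. In APOE2 the coefficient of variation of H2-Aa was 43.3%, against 11.1% from counting alone. For H2-Eb1 it was 48.0% against 17.0%, and for Cd74 50.3% against 17.0%. In APOE3 it was 26.1% for Cd74 and 65.3% for H2-Aa. Within APOE3, replicate 1 had the lowest value of H2-Aa, H2-Ab1, H2-Eb1, Cd74 and H2-DMb1, and replicate 4 had the highest value of H2-Aa, H2-Ab1, H2-Eb1, H2-DMa and H2-DMb1. The 4 genes H2-Aa, H2-Ab1, H2-Eb1 and Cd74 together made up 11.7 to 29.8 RPM in APOE2 and 31.8 to 138 in APOE3.

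Whether the class II genes rose and fell together among libraries of a single host genotype was examined in the 8 APOE2 libraries, since 5 APOE3 libraries are too few. The family held 57 relations, 15 between tested members and the others between a member and the mean of a marker list. After Benjamini-Hochberg adjustment 0 passed 0.05 by Pearson's r (lowest adjusted p = 0.321, exact permutation), while 4 had an unadjusted p under 0.05. By Spearman's rho 0 passed and 7 were under 0.05 before adjustment. Of the 15 pairs of members 7 had a positive r, and r ranged from −0.50 to 0.75.

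H2-Aa and H2-Eb1 formed the closest pair, with r = 0.75 (exact permutation p = 0.0334, adjusted 0.475) and rho = 0.74 (exact permutation p = 0.0458, adjusted 0.373). Without APOE2 replicates 1 and 5, the libraries farthest from the median of H2-Aa, r was 0.39 (exact permutation p = 0.45). Leaving out these extremes narrows the range of H2-Aa, so the lower r cannot show whether the relation rested on them. H2-Aa with H2-Ab1 gave r = 0.50 (exact permutation p = 0.235, adjusted 0.707), with rho = 0.62 (exact permutation p = 0.115, adjusted 0.615). For Cd74, r was −0.055 with H2-Aa, −0.50 with H2-Ab1 and 0.17 with H2-Eb1 (exact permutation, adjusted p = 0.939, 0.707 and 0.936), and rho was −0.26, −0.74 and 0.36 (exact permutation, adjusted p = 0.826, 0.373 and 0.716). Without APOE2 replicates 1 and 5 the r of H2-Eb1 with Cd74 was 0.76 (exact permutation p = 0.0708, adjusted 0.968).

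Markers of alveolar type 2 cells moved with genotype beside the class II genes. Of the 10 genes of that list 8 were called lower in APOE2 by limma and 0 higher, against 0.379% and 0.411% of all genes tested. The list was chosen with earlier results of these data known, so the count is a description and nothing is read from the excess. The summed level of the list ran from 119 to 784 RPM in APOE2 and from 656 to 4244 in APOE3. Its most abundant gene was Sftpc, surfactant protein C, with 390 to 2070 normalised counts (median 1125) in APOE2 and 1585, 3965, 6699, 10966 and 6530 in APOE3 replicates 1 to 5. APOE3 replicates 1 and 4, the lowest and the highest in H2-Aa, H2-Ab1 and H2-Eb1, were also the lowest and the highest in Sftpc. Cd74 was also lowest in replicate 1 but highest in replicate 3. The match was not particular to this list. Endothelial Kdr ran from 65.3 in APOE3 replicate 1 to 367 in replicate 4, and fibroblast Dcn from 26.3 to 753. Not every gene of those lists did so, and Egfl7 was highest in replicate 2 (392). The others called lower were Sftpb, Sftpa1, Sftpd, Napsa, Slc34a2, Lyz2 and Cxcl15.

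The relation to the alveolar type 2 markers differed from member to member in value. Among APOE2 libraries, r with the mean of that list was 0.82 for H2-Aa (exact permutation p = 0.0127, adjusted 0.321), with rho = 0.81 (p = 0.0218, adjusted 0.373), and 0.77 for H2-Ab1 (exact permutation p = 0.00734, adjusted 0.321), with rho = 0.76 (p = 0.0368, adjusted 0.373). It was 0.54 for H2-Eb1 (exact permutation, adjusted p = 0.707), with rho = 0.40 (adjusted 0.690), and −0.43 for Cd74 (exact permutation, adjusted p = 0.721), with rho = −0.67 (adjusted 0.592). Without the libraries farthest from the median of the list, replicates 3 and 5, r was 0.59 for H2-Aa, 0.44 for H2-Ab1, 0.12 for H2-Eb1 and −0.11 for Cd74. There were 5.00 to 125 Cd74 counts per 1000 Sftpc counts in APOE2 and 12.6 to 43.9 in APOE3. For H2-Aa the ratio ran from 38.8 to 118 and from 27.5 to 52.5.

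**Figure D2:**
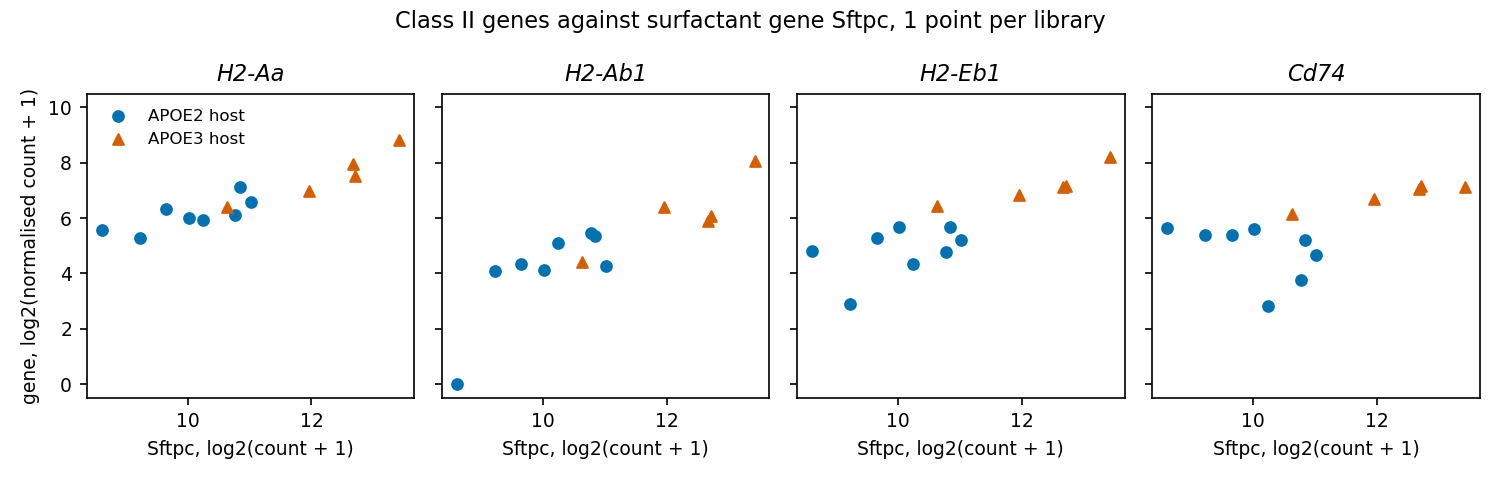
H2-Aa, H2-Ab1, H2-Eb1 and Cd74 (vertical axes) against the surfactant gene Sftpc (horizontal axes), all as log2(normalised count + 1), 1 point per library, circles for APOE2 and triangles for APOE3. H2-Aa climbs with Sftpc across both groups. Cd74 is higher in every APOE3 library than in any APOE2 library. Within APOE3 it is 69.5 at the lowest Sftpc (1585) and 138 at the highest (10966). Within APOE2 the library with the lowest Sftpc (390) has the highest Cd74 (48.7), close to replicate 4 (48.1).

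With the mean of the alveolar type 2 list as a covariate in the limma fit, the class II genes differed in how far their values moved. The log2 fold change was 0.060 ± 0.41 (SE) for H2-Aa and 0.98 ± 0.86 for H2-Ab1, both turned in sign. It was −1.05 ± 0.61 for H2-Eb1 and −2.33 ± 0.72 for Cd74, against −2.33 and −2.02 without the covariate. In that fit 0 genes passed the threshold over the whole table and 800 had an unadjusted p under 0.05. Genotype and the list moved together in these libraries, and the part of the list in the class II differences was not tested further.

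**Figure D3:**
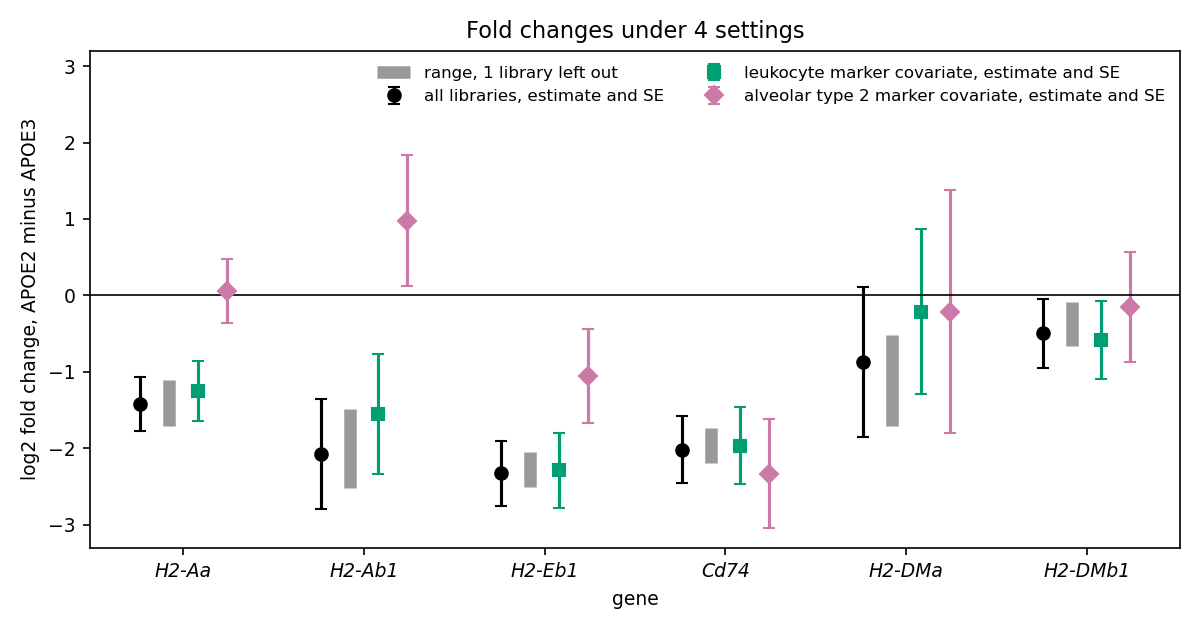
Log2 fold changes (APOE2 minus APOE3) of the 6 tested class II genes: black circles for the fit on all libraries with SE, grey bars for the range when 1 library is left out, green squares and pink diamonds for the fits with a leukocyte or an alveolar type 2 marker mean as covariate, with SE. H2-Aa and H2-Ab1 cross 0 under the alveolar type 2 covariate, and Cd74 does not.

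Leukocyte markers were sparse. Ptprc itself, which encodes CD45, had reads in every library, from 1.01 to 16.4 normalised counts in APOE2 and from 4.21 to 38.5 in APOE3. Of 14 dendritic cell and B cell markers, 10 were in the table, and Flt3, Xcr1, Clec9a and Cd209a had no row in it. That list summed to 3.17 to 13.6 RPM in APOE2 and 12.0 to 27.2 in APOE3, with Zbtb46 as its most abundant gene and Cd79a, Ms4a1 and Cd86 without a read in at least 7 libraries. The 15 macrophage and monocyte markers, led by Fcer1g, summed to 7.42 to 25.7 and 15.5 to 24.7 RPM, with Adgre1, Aif1, C1qb, C1qc, Siglecf and Ccr2 without a read in at least 7 libraries. The pan-leukocyte, T cell and NK cell list, led by Laptm5 and with 9 of 10 genes in the table (all but Cd3g), summed to 2.88 to 19.6 and 11.7 to 17.5, and Cd3e, Trac, Nkg7 and Ncr1 were without a read in at least 7 libraries. In these lists 1, 3 and 2 genes were abundant enough to be tested, and 0 passed by limma, 0 also at an unadjusted p under 0.05. Of all 12403 genes tested, 1763 had such a p. All tested genes of these lists had negative log2 fold changes, the same sign as the tested class II genes. Of these, Cd53 met the minimum mean only through APOE3 (mean 16.3, against 6.08 in APOE2). Most genes of the lists were too low to test, and their means went both ways. Mrc1 (6.99 against 2.13) and Marco (5.62 against 0.421) were higher in APOE2, and Csf1r (1.68 against 16.4) was lower. The value was −0.68 for the single dendritic cell and B cell gene, with medians of −0.41 and −1.21 for the other lists.

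With the mean of the 3 leukocyte lists as a covariate, the log2 fold changes kept their direction but not all kept their size. H2-DMa went from −0.87 to −0.21, H2-Ab1 from −2.07 to −1.55 and H2-Aa from −1.42 to −1.25. H2-Eb1 was at −2.29, Cd74 at −1.96 and H2-DMb1 at −0.59. None of the 4 members that were not picked passed in this fit (limma adjusted p = 0.189 for H2-Aa and 0.490 for H2-Ab1). The part of leukocyte RNA in the class II differences was otherwise not tested.

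Other lists of lung cells had negative median log2 fold changes as well, −1.56 for the endothelial and −1.28 for the fibroblast and smooth muscle genes, against 0.091 for the melanoma genes. Of 8 endothelial genes 1 passed by limma, Calcrl, a subunit of the adrenomedullin receptor (log2 fold change −1.60, adjusted p = 0.0301). All 8 had negative fold changes, with Egfl7 as the most abundant. Tek (mean 5.99 in APOE2 and 40.8 in APOE3) and Emcn (4.60 and 29.9) met the minimum mean for testing only through APOE3. Nothing is read from the signs of Tek and Emcn, and the endothelial median includes both. Of 5 tested fibroblast and smooth muscle genes 1 passed, smooth muscle actin Acta2 (−3.09, limma adjusted p = 0.0216), and Dcn was the most abundant of its list. Over all genes tested limma called 0.379% lower in APOE2, and these lists too were chosen with earlier results of these data known. The 8 melanoma genes, led by Dct, summed to 35905 to 52161 RPM in APOE2 and 26529 to 38699 in APOE3, and 0 passed by limma. The part of endothelial or fibroblast RNA in the class II values was not tested.

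The rest of the class II pathway showed no call in either direction. Of 20 further genes of regulation, processing and turnover, 15 were tested and 0 passed by limma, 0 also at an unadjusted p under 0.05. Over all 12403 genes tested 0.79% were called and 1763 had an unadjusted p under 0.05. The median log2 fold change of the 15 was −0.058, against 0.00037 over all genes tested. Among the factors that hold CIITA at the X and Y boxes, Rfx5 had 415 ± 56.0 (SD, n = 8) normalised counts in APOE2, and in APOE3 it had 438 ± 104 (SD, n = 5). This is a log2 fold change of −0.058 ± 0.16 (SE, limma adjusted p = 0.910). Its cofactors Rfxap and Rfxank and the Y box proteins Nfya, Nfyb and Nfyc had log2 fold changes between −0.23 and 0.31.

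Genes of peptide processing had no call either. Ctss, the protease that removes the invariant chain in many antigen-presenting cells, had mean normalised counts of 28.1 ± 24.1 (SD, n = 8) in APOE2, of 34.1 ± 15.7 (SD, n = 5) in APOE3, and a log2 fold change of −0.81 ± 0.67 (SE, limma adjusted p = 0.615). Ctsb and Ctsd, lysosomal cathepsins, averaged 4198 and 3793 normalised counts in APOE2 and 4213 and 4503 in APOE3, with log2 fold changes of 0.00037 and −0.21. Ifi30, the thiol reductase of antigen-presenting compartments, had a log2 fold change of 0.12. Of the other class II chains, H2-Ob had 14 reads in the APOE2 and 56 in the APOE3 libraries, H2-Oa had 1 read in the APOE2 and 2 in the APOE3 libraries, and H2-Eb2 had 4 and 0.

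**Figure D4:**
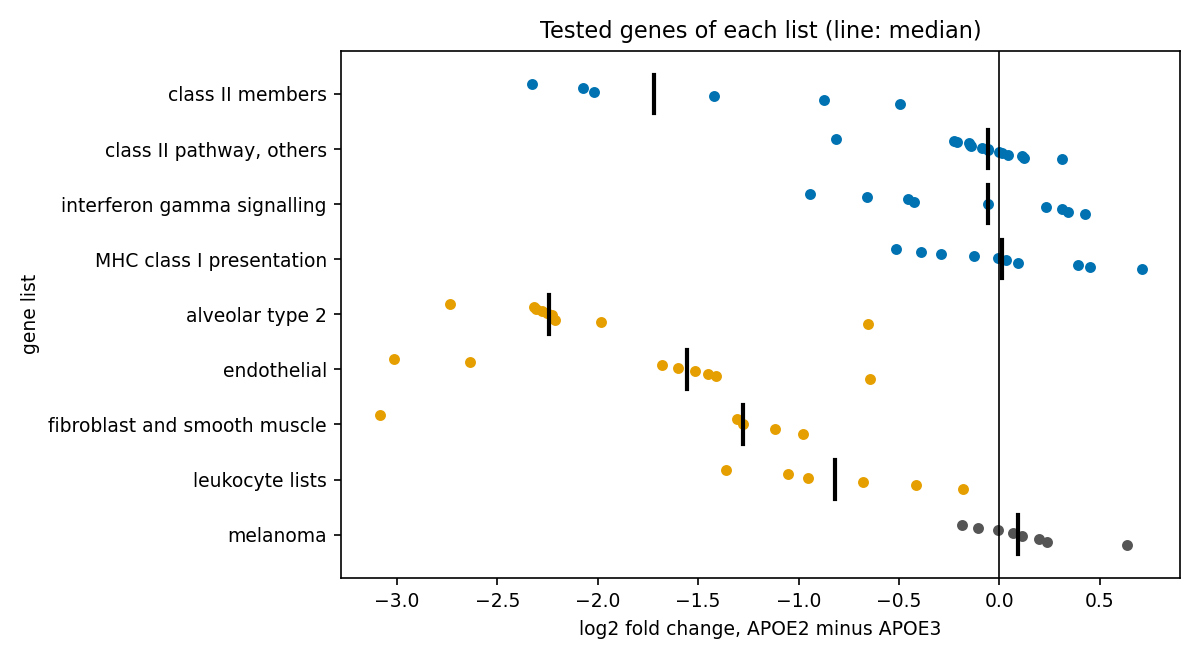
Log2 fold changes (APOE2 minus APOE3, horizontal axis) of the tested genes of each list, 1 point per gene, with a line at the list's median; blue for antigen presentation and its signals, orange for other lung and blood cells, grey for melanoma genes. The class II members lie between −2.33 and −0.50, and the other class II pathway genes have a median of −0.058.

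Interferon gamma signalling, the usual inducer of Ciita, had 0 of 9 tested genes past the threshold by limma and 2 at an unadjusted p under 0.05. Of all 12403 genes tested, 1763 had such a p. The median log2 fold change of the 9 genes was −0.055. Irf1, a target that helps to switch on Ciita, had a log2 fold change of −0.055 ± 0.20 (SE, limma adjusted p = 0.934). Nlrc5, the class I counterpart of CIITA, had −0.94 ± 0.76 (SE, limma adjusted p = 0.606). Ifng had 2 reads over all libraries.

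Of 10 MHC class I presentation genes 0 passed by limma and 1 had an unadjusted p under 0.05, against 1763 of all 12403 genes tested. The median log2 fold change of the 10 genes was 0.013. B2m, the class I light chain, averaged 2657 normalised counts in each group.

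The genes whose pattern was most like the classical chains and Cd74 were ranked by Pearson's r across the 13 libraries, with log2 values centred within genotype so that the host difference did not enter. The 10 highest were Sdhaf2 (r = 0.89), Tor3a (0.85), Prx (0.84), Arhgef3 (0.84), Klf9 (0.83), Sel1l (0.83), Col6a2 (0.82), 1600002K03Rik (0.82), Gsap (0.82) and Tagln2 (0.81). Without APOE3 replicate 4 these values lay between 0.73 and 0.85. Lamp3 and Napsa, of the alveolar type 2 list, followed at ranks 11 (r = 0.81) and 14 (0.80). The rest of that list ranked from 34 (Sftpc, 0.76) down to 1918 (Abca3, 0.34). Fibroblast Col3a1, at rank 167 (0.66), stood above some of them. With 13 libraries and 12403 genes such values are a description, and the points share depth and tissue content. Among the members themselves r with this mean was 0.93 for H2-Aa, 0.84 for H2-Eb1, 0.58 for H2-Ab1 and 0.40 for Cd74, which form it, and 0.24 for H2-DMa and −0.19 for H2-DMb1, which do not.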

How the data were processed

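The deposited file gives, for each of 13 libraries (8 APOE2, 5 APOE3), the authors' normalised counts per gene, handled here as a signal. Per the submitters' processing notes, STAR 2.6.0, featureCounts, DESeq2 1.28.1 and the build mm10 were used; the annotation and the strand setting are not given in the sources used here. All nonzero values were whole multiples of 1 step per library (tolerance 0.001 of a read), so reads were recovered by division. Reads have no molecular identifiers, so counting intervals and floors cover counting error only. Identifiers were paired with GENCODE M21 symbols (22649 of 22656).

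Genes with a mean of at least 10 were tested on log2(value + 1) with limma 3.58.1 (trend, two-sided, R 4.3.3), Benjamini-Hochberg adjusted over all 12403; this scale understates changes of low genes. The design text gives 8 and 5 mice, so p-values measure the spread between mice. Alternatives were other pseudocounts, scalings and filters, limma without trend, marker covariates, a replicate block, each library left out, and edgeR 4.0.16 and DESeq2 1.42.0 on recovered reads. The limma, edgeR and DESeq2 fits were tested on simulated data. Correlations used exact permutation tests over all pairings. The genes named are the 7 members, listed pathway genes past the threshold with Rfx5, Ctss, Irf1 and Nlrc5, the 10 most alike genes, and each marker list's most abundant and called genes; others, such as Ptprc, were named after their values were seen. Some items are not reported here. Members and lists were chosen with earlier results of these data known.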

Additional observations from a re-analysis of the deposited data

Results flagged for a closer look

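In each group every class II gene was screened for a library that stood far from the others by Dixon's criterion. In 14 screens 2 values stood apart, where about 0.7 would by chance if values were normally distributed and the screens independent. The screens used normalised counts, not log2 values, and the genes share libraries, so nothing is read from the excess. Both flagged values were high values of APOE3 replicate 4: H2-Ab1 at 265 normalised counts, with 82.5 in the nearest other library, and H2-Eb1 at 293, with 143 in the nearest. Among the APOE3 libraries it also had the highest Sftpc (10966 normalised counts), endothelial Kdr (367) and fibroblast Dcn (753). Without it the log2 fold change was −1.60 for H2-Ab1 and −2.07 for H2-Eb1.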

How the results depend on the processing

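The number of genes called over the whole table, 98 (51 higher and 47 lower in APOE2), was 9 without a filter on low values, 56 with the leukocyte covariate, 318 by DESeq2, and 0 both in limma without trend (1599 at an unadjusted p under 0.05) and with the alveolar type 2 covariate (800); edgeR called 138. With equal library totals the split was 38 higher and 54 lower. Leaving out 1 library gave 9 (without APOE3 replicate 3) to 228 (without APOE3 replicate 1), with 28 to 57 without APOE2 replicate 1, 2, 5, 7 or 8 and 30 without APOE3 replicate 4. With the replicate block 43 were called; same-numbered libraries of the groups did not deviate together (correlations from −0.063 to 0.014), so the numbers do not pair them. Of the 4 tested members that were not picked, limma called 0, with 1 at a pseudocount of 5, with equal totals, at a minimum mean of 50 and by edgeR, 2 by DESeq2, and 0 to 1 with 1 library left out. H2-Aa was the gene gained, with log2 fold changes of −1.37, −1.46, −1.42, −1.55 and −1.56 in those 5 settings and from −1.70 to −1.10 with 1 library left out; H2-Ab1 was −2.09 by DESeq2. Under the alveolar type 2 covariate H2-Aa was 0.060, H2-Ab1 0.98 and H2-Eb1 −1.05. Apart from those 2 changes of sign, the 6 tested members kept negative fold changes in every setting that gave a value. Correlations within APOE2 had 0 past the threshold also with a pseudocount of 5 (3 at an unadjusted p under 0.05) and without the 2 farthest libraries (0). Low reads limit H2-DMa and Ciita. Where settings moved a value, the cause was not tested.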

Other observations

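Ifngr1, the ligand-binding chain of the interferon gamma receptor, was named here after its values were seen. It had 163, 179, 185, 208 and 193 normalised counts in APOE3 replicates 1 to 5 and from 87.8 through a median of 125 to 151 in APOE2, so that the groups did not overlap. Over all 12403 genes tested 0.508% had all APOE2 libraries below all APOE3 libraries, and nothing is read from Ifngr1 being among them. The log2 fold change of Ifngr1, −0.66 ± 0.20 (SE), did not pass by limma (adjusted p = 0.134). H2-Ob, a chain of the H2-O dimer that restrains H2-DM, was also singled out after its values were seen: it had reads in all 5 APOE3 libraries (56 reads in total) and in 3 of 8 APOE2 libraries (14 reads), and its mean was below the minimum for testing.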
